A study of Mus musculus with 27 samples.

Results

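Neat1 and Malat1 are neighbouring long non-coding RNA genes whose transcripts stay in the nucleus. They were the 2 genes described here out of 45070 in the table, chosen by symbol, and both were among the 13901 genes with values high enough to test. The cells were bone marrow-derived macrophages (BMDMs) grown from wild-type male C57/BL6 mice aged 6 to 8 weeks. All 27 samples received DMSO, the vehicle of inhibitors used elsewhere in the study, for 1 h, and were then left untreated or given lipopolysaccharide (LPS) or interleukin-4 (IL-4), both at 10 ng/ml, for 0.5, 1, 2 or 4 h, which made 9 groups of 3 replicates. RNA was taken from the chromatin pellet, which holds nascent transcripts and RNAs that remain attached to chromatin. LPS is the bacterial agonist of the receptor TLR4, and IL-4 drives the alternative activation of macrophages. The labels do not say whether replicates came from separate cultures or animals, so the p-values measure the spread between these samples.

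As background, Neat1 is the architectural RNA of paraspeckles, nuclear bodies that assemble on its long isoform and hold RNA-binding proteins such as NONO and SFPQ. A short isoform of Neat1 shares the start of the long one. Malat1 is a very abundant RNA of nuclear speckles, bodies rich in splicing factors, and its primary transcript is cut by RNase P and RNase Z, which frees a small tRNA-like cytoplasmic RNA named mascRNA.

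Both genes lie on the minus strand of chromosome 19 (GRCm38), and 22035 bases separate them. Malat1 covers chr19:5795690-5802672, a single exon of 6983 bases, and Neat1 covers chr19:5824708-5845480, a span of 20773 bases that holds both isoforms, so that one value per gene cannot separate the isoforms. The only other annotated gene overlapping either of them was Mascrna, inside Malat1, at 0 to 2 normalised read counts in every sample. The mascRNA sequence is shown because it marks the processed end of Malat1. It is the stretch chr19:5795924-5795981 of the minus strand, bases 6692 to 6749 of the Malat1 transcript in GENCODE M21, with 234 bases after it.
mascRNA: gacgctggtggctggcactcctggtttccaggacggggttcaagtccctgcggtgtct

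The promoter of Malat1 is shown because this gene changed after LPS. It runs from 250 bases before to 50 after the start in RefSeq (GRCm38.p6, chr19:5802623-5802922, minus strand), and capitals mark the CRE half-site TGACG on either strand.
Malat1 promoter: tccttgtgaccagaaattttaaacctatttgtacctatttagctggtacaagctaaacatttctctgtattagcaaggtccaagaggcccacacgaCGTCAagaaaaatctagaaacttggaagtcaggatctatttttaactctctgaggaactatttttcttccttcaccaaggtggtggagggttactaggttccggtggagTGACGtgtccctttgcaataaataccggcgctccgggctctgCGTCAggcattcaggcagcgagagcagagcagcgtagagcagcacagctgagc

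A promoter sequence was matched for 1 of the 2 genes. The half-site occurred 3 times in the Malat1 window, at positions -154, -45 and -3 from the start, and was held at least once by 20.8% of 32851 RefSeq promoter windows of the same length and 3 or more times by 1.03%. The full palindrome TGACGTCA (in 1.79% of windows), the AP-1 motif TGANTCA (7.81%), the STAT motif TTCNNNGAA (8.3%), TATAAA (13.6%), CCAAT (37.4%), GGGCGG (35.7%) and CACGTG (7.15%) had no match on either strand, nor did an NF-κB motif of GGG and CC spaced by 5 bases, which 50.8% of windows held, the STAT6 form of the STAT motif with 4 bases between its arms (6.95%) or a pair of GAAA spaced by 2 bases (3.44%). The half-site forms part of the full palindrome, so these motifs overlap.

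The summed normalised read counts were 2469768 to 2790981 in untreated and IL-4 samples and 3571492 to 4058199 in LPS samples. The libraries had been scaled on invariant genes, which need not make the sums equal, and why they were higher after LPS was not tested. These sums are not sequencing depths, and the depth is unknown. Macrophage markers summed to between 11590 and 29611, while 7 T and B cell markers summed to 1 to 18, 7 neutrophil and progenitor markers to 9 to 38, 5 dendritic cell markers to 11 to 99 and 6 stromal markers to 50 to 329. The stromal sum was 50 to 96 in untreated, 161 to 329 at LPS 4 h and 177 to 276 at IL-4 4 h. Of the 6 markers, 4 were tested. In the F tests 2 of these were called with a rise after LPS and 1 after IL-4, beside 32.9% and 19.4% of all tested genes. Pdgfrb went from a mean of 1.67 to 87.7 at LPS 4 h, and Pecam1 from 7.0 to 48.7 at LPS 4 h and 129 at IL-4 4 h. The collagen genes Col1a1 and Col1a2 were not called in either course (F test adjusted p = 0.981 and 0.944 after LPS, 0.953 and 0.994 after IL-4), and Pdgfra was at 0 in all untreated samples. The part of these cells in the results was not tested, and in bulk samples fewer cells of a type and less RNA per cell cannot be told apart. Mitochondrial genes held 0.285% to 0.844% of the total in replicate 1 and 1.51% to 4.59% in the other replicates, in all groups.

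Neat1 rose about 3-fold within 0.5 h of LPS and was back near its starting level at 1 h. By 2 h it had fallen to 0.281 times that level, where it remained at 4 h. The normalised read counts of Neat1 were 9445, 6855 and 7284 in the untreated samples and 34123, 17516 and 19177 at LPS 0.5 h. They were 10566, 8414 and 8022 at 1 h. Later they were far lower, with 2306, 2020 and 2299 after 2 h and 2179, 1791 and 2312 after 4 h. All samples at 0.5 h were above, and all samples at 2 and 4 h below, each untreated sample, while the samples at 1 h overlapped with untreated. In replicate 1 of LPS 0.5 h Neat1 had the highest value of all 45070 genes, and that library stood apart from the other 2 of its group.

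Group means of Neat1 were 7861 ± 1388 in untreated cells (SD, n = 3), 23605 ± 9146 at LPS 0.5 h, 9001 ± 1370 after 1 h, 2208 ± 163 after 2 h and 2094 ± 271 after 4 h. The log2 fold change at 0.5 h was 1.53 ± 0.21 (SE, limma adjusted p = 2.07e-05), in a comparison in which 53.9% of all tested genes passed the threshold of 0.05. A higher log2 fold change was fitted for 1110 of the 13901 tested genes, but in counts gained Neat1 was 6th of all genes, with 15744 more than in untreated cells. Without the first replicates, the rise was 1.37 (adjusted p = 2.13e-07). At 1 h the difference from untreated was 0.20 ± 0.21 (adjusted p = 0.423, 95% interval -0.25 to 0.65), where 63.8% of genes passed.

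The falls at 2 and 4 h were -1.82 ± 0.21 (adjusted p = 1.79e-06) and -1.90 ± 0.21 (adjusted p = 1.12e-06) in limma, and 65.9% and 63.5% of genes passed at these times. From one time point to the next, Neat1 fell by 1.34 on the log2 scale between 0.5 and 1 h (adjusted p = 8.92e-05, 49.7% of genes passing) and by 2.02 between 1 and 2 h (adjusted p = 1.27e-06, 43.3% passing). Between 0.5 and 2 h the mean dropped 10.7-fold, and its normalised read count dropped by 21397, the second largest loss of any gene over that interval. This drop, its rank and the gain of 15744 at 0.5 h all use the LPS 0.5 h mean. Replicate 1 raised that mean, at 34123 beside 17516 and 19177. The step from 2 to 4 h was -0.08 ± 0.21 (adjusted p = 0.834, 22.9% passing). The F test over the LPS course gave an adjusted p of 1.64e-09 for Neat1, and 87.6% of genes passed it.

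A pattern of a rise at 0.5 h followed by values below untreated at 2 and 4 h, with each of the 3 contrasts passing, was met by 339 of the tested genes (2.44%), Neat1 among them. Malat1 was not. This description was chosen after the values of Neat1 had been seen.

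After IL-4, Neat1 decreased in mean to a low point at 2 h and then partly recovered, though not every step passed the threshold. Its normalised read counts were 6227, 5503 and 6430 at 0.5 h, and 4758, 3905 and 5197 after 1 h of IL-4. They were 3218, 2742 and 2720 after 2 h, then 5144, 4629 and 5456 after 4 h. Every IL-4 sample was below every untreated sample, and the samples at 2 h were below those of the 3 other IL-4 times.

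The means were 6053 ± 487 after 0.5 h of IL-4, 4620 ± 657 after 1 h, 2893 ± 281 after 2 h and 5076 ± 418 after 4 h (SD, n = 3). The difference from untreated at 0.5 h was -0.37 ± 0.14 on the log2 scale and missed the threshold (limma adjusted p = 0.0894, 95% interval -0.66 to -0.07), where 16.3% of genes passed. With all libraries brought to equal totals it was -0.49 and passed (adjusted p = 0.0269). It also passed with a replicate block, a fit that pairs samples by replicate number. Neat1 fell by 0.76 at 1 h (adjusted p = 0.000988, 21.0% of genes passing), by 1.43 at 2 h (adjusted p = 3.13e-06, 27.6% passing) and by 0.62 at 4 h (adjusted p = 0.00394, 25.9% passing). At 2 h only 454 of the 13901 tested genes had a lower log2 fold change.

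Between successive IL-4 times, the difference in Neat1 from 0.5 to 1 h was -0.40 ± 0.14 (limma adjusted p = 0.0982, 7.82% of genes passing). That difference passed with the replicate block. Neat1 fell by 0.67 from 1 to 2 h (adjusted p = 0.00663, 9.40% passing) and rose by 0.81 from 2 to 4 h (adjusted p = 0.00331, 5.48% passing). Both steps missed the threshold without the second replicates (-0.75, adjusted p = 0.0768, and 0.84, adjusted p = 0.102) and without the third (-0.54, adjusted p = 0.273, and 0.72, adjusted p = 0.218). In normalised read counts, the recovery of 2183 from 2 to 4 h was the second largest gain of any gene over that interval. Over all IL-4 times, the F test of Neat1 gave an adjusted p of 2.34e-05, with 40.3% of genes passing.

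**Figure D1:**
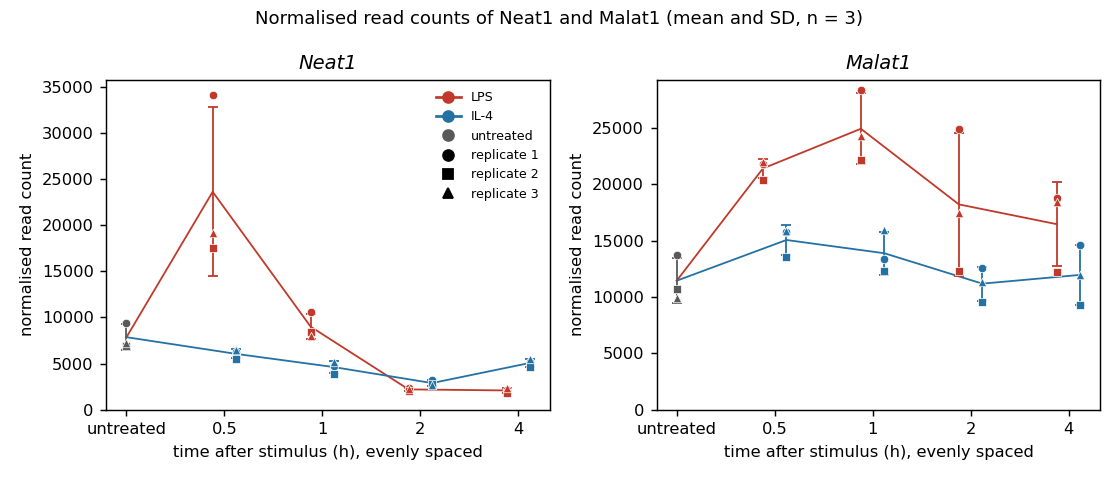
Normalised read counts of Neat1 (left) and Malat1 (right) in each of the 27 samples, against the time after LPS (red) or IL-4 (blue), with untreated samples in grey. Symbols mark the replicate, lines join group means and bars are SD (n = 3). Neat1 peaks at LPS 0.5 h, between 17516 and 34123, and lies between 1791 and 2312 at LPS 2 and 4 h, while Malat1 lies between 9304 and 28295 in all samples.

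Malat1 moved in another way. It was about 2-fold higher than in untreated cells at 0.5 and 1 h of LPS. In the main fit, which did not pair samples by replicate number, its change after IL-4 did not pass at any time. Its normalised read counts were 13721, 10675 and 9919 in untreated cells and 21817, 20383 and 21948 at LPS 0.5 h. They were 28295, 22132 and 24276 after 1 h of LPS. Later they spread more widely, with 24889, 12311 and 17405 after 2 h, and 18739, 12177 and 18424 after 4 h. All samples at 0.5 and 1 h were above each untreated sample, and at 2 and 4 h the second replicate lay within the untreated range.

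The means of Malat1 were 11438 ± 2013 in untreated cells, 21383 ± 868 at LPS 0.5 h, 24901 ± 3129 after 1 h, 18202 ± 6327 after 2 h and 16447 ± 3701 after 4 h (SD, n = 3). Malat1 rose by a log2 fold change of 0.92 ± 0.22 at 0.5 h (limma adjusted p = 0.0029), 1.13 ± 0.22 at 1 h (adjusted p = 0.000439) and 0.63 ± 0.22 at 2 h (adjusted p = 0.0229). The difference at 4 h was 0.51 ± 0.22 (adjusted p = 0.0582, 95% interval 0.03 to 0.99). The rises at 0.5 and 2 h missed the threshold without the third replicates (0.80, adjusted p = 0.0848, and 0.53, adjusted p = 0.206). The difference at 4 h passed without the first (0.54, adjusted p = 0.0133) or the second replicates (0.67, adjusted p = 0.0382). None of the steps between successive LPS times passed, with adjusted p of 0.456, 0.0842 and 0.779, but the step from 1 to 2 h did so without the first replicates (-0.66, adjusted p = 0.00545) and with equal totals (-0.58, adjusted p = 0.0468). The F test over the LPS course gave an adjusted p of 0.00242, which became 0.095 without the third replicates.

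After IL-4, Malat1 had normalised read counts of 15733, 13550 and 15853 at 0.5 h, and 13370, 12282 and 15960 after 1 h. They were 12593, 9575 and 11364 after 2 h, then 14631, 9304 and 11928 after 4 h. At each time at least 1 sample lay within the untreated range of 9919 to 13721, or below it. The log2 differences from untreated were 0.41 (95% interval 0.03 to 0.78), 0.28 (-0.09 to 0.66), -0.03 (-0.40 to 0.35) and 0.05 (-0.32 to 0.43) at the 4 times. Their limma adjusted p were 0.147, 0.304, 0.936 and 0.866, and that of the F test was 0.18. At 0.5 h the difference passed without the first replicates (0.51, adjusted p = 0.0419), as did the F test (adjusted p = 0.0352). The difference at 0.5 h and the F test also passed with a replicate block, a fit that pairs samples by replicate number.

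The change of Malat1 after LPS depended on how the libraries were scaled. Under the scaling of the deposited values, the tested genes as a whole had a median log2 fold change between -0.30 and -0.24 at the 4 LPS times. It lay between -0.91 and -0.73 with equal totals, and between -0.05 and -0.00 with median-of-ratios factors. With equal totals, the log2 fold change of Malat1 was 0.40 at 0.5 h (limma adjusted p = 0.127), 0.55 at 1 h (adjusted p = 0.039), -0.03 at 2 h (adjusted p = 0.895) and -0.10 at 4 h (adjusted p = 0.701). With median-of-ratios factors it was 1.17, 1.40, 0.87 and 0.75, all past the threshold. Relative to the median gene, a difference from which a change of scaling largely cancels by construction, Malat1 was at 1.16, 1.43, 0.91 and 0.77 at the 4 times. Neat1 kept its direction at LPS 0.5, 2 and 4 h under all 3, at 1.02 to 1.79, -2.48 to -1.57 and -2.51 to -1.66, but at 1 h it was -0.38 with equal totals and 0.47 with median-of-ratios factors, neither past the threshold.

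**Figure D2:**
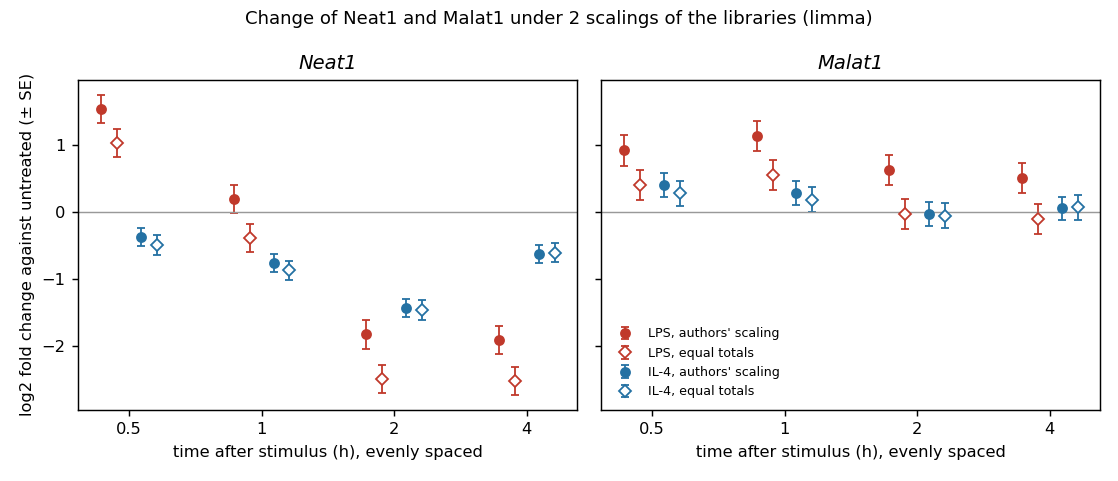
Log2 fold changes of Neat1 (left) and Malat1 (right) against untreated cells at each time after LPS (red) or IL-4 (blue), with bars of 1 SE from limma. Filled circles use the scaling of the deposited values and open diamonds bring all libraries to equal totals. The red diamonds of Malat1 at 2 and 4 h lie at -0.03 and -0.10, below the circles at 0.63 and 0.51, while Neat1 at LPS 2 and 4 h is far below 0 with either scaling.

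As a share of all normalised read counts in a sample, Neat1 made up 0.310% ± 0.0604 in untreated cells (SD, n = 3), 0.650% ± 0.243 at LPS 0.5 h, 0.236% ± 0.0306 after 1 h, 0.0550% ± 0.00342 after 2 h and 0.0541% ± 0.00747 after 4 h. After IL-4 its share was 0.218% ± 0.0185, 0.169% ± 0.0257, 0.112% ± 0.0116 and 0.202% ± 0.0159 at the same times. Between untreated and LPS 4 h the share of Neat1 thus differed 5.74-fold and its normalised read count 3.75-fold.

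The share of Malat1 was 0.451% ± 0.0881 in untreated cells, 0.591% ± 0.0255 at LPS 0.5 h, 0.654% ± 0.0710 after 1 h, 0.453% ± 0.155 after 2 h and 0.425% ± 0.0976 after 4 h. After IL-4 it was 0.543% ± 0.0496, 0.509% ± 0.0758, 0.432% ± 0.0604 and 0.476% ± 0.112. All samples at LPS 0.5 and 1 h had a larger share than each untreated sample, and at all other times the groups overlapped with untreated. Both genes together held between 0.479% ± 0.105, at LPS 4 h, and 1.24% ± 0.25, at LPS 0.5 h, of all normalised read counts, and between 4.84% and 17.3% of those assigned to non-coding RNA genes.

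**Figure D3:**
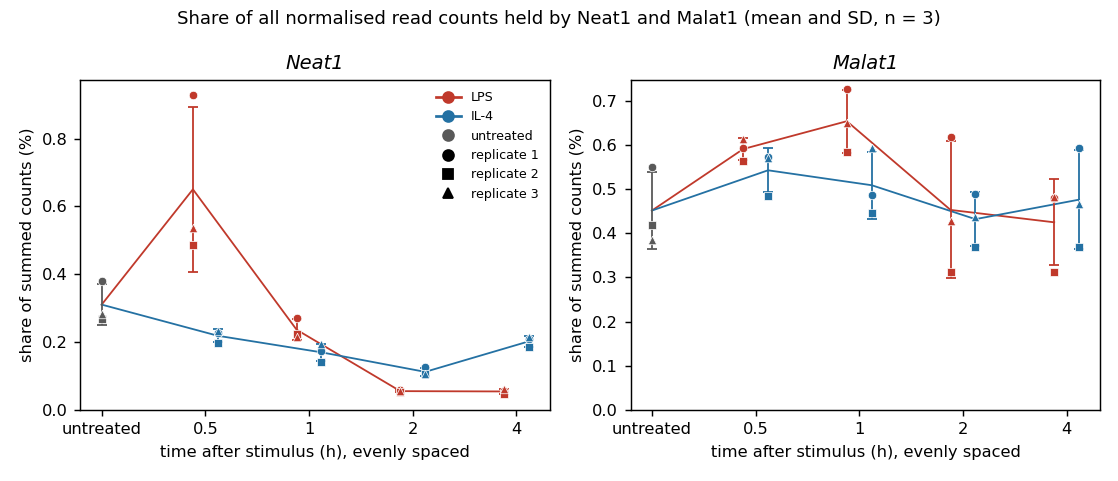
Share of the summed normalised read counts of each sample held by Neat1 (left) and Malat1 (right), in percent, with the colours, symbols and bars (SD, n = 3) of the plot of normalised read counts. Neat1 lies between 0.0459% and 0.0606% at LPS 2 and 4 h, while the shares of Malat1 at these times, 0.311% to 0.619%, overlap with the untreated ones of 0.385% to 0.551%.

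Ordered by mean, Neat1 was highest at LPS 0.5 h, followed by LPS 1 h, untreated, IL-4 0.5 h, IL-4 4 h, IL-4 1 h, IL-4 2 h, LPS 2 h and LPS 4 h. The pairs LPS 1 h and untreated, IL-4 4 h and IL-4 1 h, and LPS 2 h and LPS 4 h differed by less than the larger of their SDs, and the other 5 pairs of neighbours did not overlap. For Malat1 the order was LPS 1 h, LPS 0.5 h, LPS 2 h, LPS 4 h, IL-4 0.5 h, IL-4 1 h, IL-4 4 h, untreated and IL-4 2 h, and LPS 1 h and 0.5 h were its one pair of neighbours that differed by more than the larger SD. Per kilobase of the annotated length, which for Neat1 is that of the long isoform, Malat1 was the higher of both genes in every group, at 1638 ± 288 normalised read counts per kilobase in untreated cells against 378 ± 66.8 for Neat1, and at 3062 ± 124 against 1136 ± 440.3 at LPS 0.5 h. This order depends on the isoform in untreated cells and at LPS 0.5 h. All counts of Neat1 divided by the 3004 bases of its short isoform would give 2617 and 7858 there. In every other group Malat1 stayed the higher with that length too, as at IL-4 4 h, with 1712 against 1690.

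The direct comparison of LPS with IL-4 at the same time, fitted on all 27 samples, gave a difference in Neat1 that changed its sign over the course. Neat1 was higher after LPS by 1.90 ± 0.18 on the log2 scale at 0.5 h (limma adjusted p = 6.35e-09, 53.8% of genes passing) and by 0.96 ± 0.18 at 1 h (adjusted p = 7.23e-05, 64.5% passing). At 2 h the difference was -0.39 ± 0.18 (adjusted p = 0.064, 68.6% passing, 95% interval -0.77 to -0.01), and at 4 h Neat1 was lower after LPS, with a difference of -1.28 ± 0.18 (adjusted p = 1.4e-06, 68.0% passing). With equal totals the difference at 2 h was -1.02 and passed (adjusted p = 2.26e-05), as it did without the first replicates (-0.34, adjusted p = 0.0171), while with median-of-ratios factors it was -0.11 (adjusted p = 0.673). The median difference of all tested genes was -0.36 to -0.23 at the 4 times, and relative to it Neat1 was at -0.05 at 2 h and -0.93 at 4 h.

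Malat1 was higher after LPS than after IL-4 by 0.51 ± 0.21 at 0.5 h (limma adjusted p = 0.0425), 0.85 ± 0.21 at 1 h (adjusted p = 0.00109) and 0.65 ± 0.21 at 2 h (adjusted p = 0.00789), and the difference at 4 h was 0.46 ± 0.21 (adjusted p = 0.0559). With equal totals these were 0.13, 0.37, 0.02 and -0.17, none past the threshold, while relative to the median gene they were 0.74, 1.17, 0.99 and 0.81. The difference at 0.5 h missed the threshold without the second (0.47, adjusted p = 0.0777) or the third replicates (0.53, adjusted p = 0.203), that at 2 h without the third (0.67, adjusted p = 0.0822). That at 4 h passed without the first (0.51, adjusted p = 0.0105) and without the second (0.49, adjusted p = 0.0499).

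The ratio of Neat1 to Malat1 within a sample does not depend on the scaling. It was 0.688, 0.642 and 0.734 in untreated cells and 1.56, 0.859 and 0.874 at LPS 0.5 h. It then dropped to between 0.330 and 0.380 at LPS 1 h, 0.0927 and 0.164 after 2 h, and 0.116 and 0.147 after 4 h. After IL-4 it was 0.396 to 0.406 at 0.5 h, 0.318 to 0.356 after 1 h, 0.239 to 0.286 after 2 h and 0.352 to 0.498 after 4 h. In each of the 8 stimulated groups the ratios did not overlap with those of untreated cells, being higher at LPS 0.5 h and lower in the other 7.

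Two-sided exact permutation tests of 3 against 3 samples cannot give a p below 0.10, and all 8 groups reached this value (adjusted p = 0.122 over 11 comparisons). Over all 12 IL-4 samples, the log2 ratio differed from that in untreated cells by -0.97 (exact permutation p = 0.0044, the smallest this design allows, adjusted p = 0.0484, lower in 12 of 12 samples). The 12 LPS samples, which include the high ratios at 0.5 h, differed from untreated by -1.29 (exact permutation p = 0.154, adjusted p = 0.169). They differed from the 12 IL-4 samples by -0.32 (permutation p = 0.437 with 100000 resamples, adjusted p = 0.437). The pooled tests treated samples of different times as interchangeable replicates, although each time had only 3 samples. Samples of the same group or replicate number may not be independent, so the pooled p-values can be too small. No single time passed the threshold after adjustment.

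**Figure D4:**
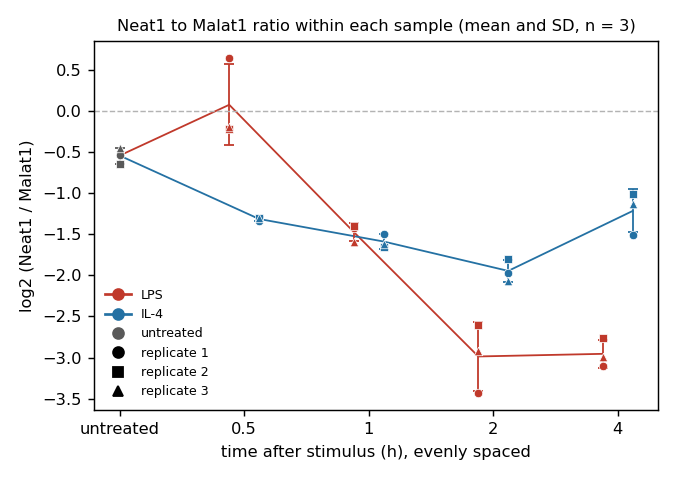
Log2 of the ratio of Neat1 to Malat1 in each sample against the time after LPS (red) or IL-4 (blue), with untreated samples in grey, symbols for replicates, and the mean and SD (n = 3) of each group. The LPS ratios go from a mean of 0.08 at 0.5 h to -2.99 at 2 h, and the IL-4 ratios are lowest at 2 h, at -1.95.

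Within 100 kb of Neat1 and Malat1 the table held 13 other genes, of which 9 were tested. In the F test over the LPS course 2 of these 9 were called with their largest change a rise and 6 with a fall, against 32.9% and 54.7% of all tested genes. In that over the IL-4 course 1 was called with a rise and 3 with a fall, against 19.4% and 20.9%. Frmd8, 5494 bases from the start of Neat1 on the same strand, encodes a protein that binds the iRhoms, which escort the TNF-releasing protease ADAM17. Its mean was 153 ± 29.4 in untreated cells, 31.3 ± 3.51 at LPS 0.5 h and 54.0 ± 4.36 at 1 h (SD, n = 3). It had fallen by 2.24 (limma adjusted p = 1.51e-08) and 1.47 (adjusted p = 9.81e-07) on the log2 scale at these times, and at 2 h the difference from untreated was 0.32 (adjusted p = 0.0892). Slc25a45, of the mitochondrial carrier family, fell from 82.7 ± 10.6 to 8.0 ± 5.0 at LPS 1 h (log2 fold change -3.39, adjusted p = 1.34e-06).

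Among the other neighbours, Ltbp3, which binds latent TGF-β, fell from 46.3 ± 11.2 to 8.0 ± 4.0 at LPS 4 h (log2 fold change -2.48, limma adjusted p = 4.22e-06). Fam89b fell from 23.3 ± 7.02 to 4.67 ± 2.08 at 0.5 h (-2.12, adjusted p = 0.00118), and Ehbp1l1 and Kcnk7 were lowest at 2 h. Dpf2, a subunit of BAF chromatin remodelling complexes, rose by 1.09 at 2 h (adjusted p = 7.78e-06). Cdc42ep2, an effector of the GTPase CDC42, was at 1.0 ± 1.0 in untreated cells and 63.3 ± 4.93 at LPS 1 h. The highest untreated mean among the neighbours was 195, against 7861 for Neat1.

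**Figure D5:**
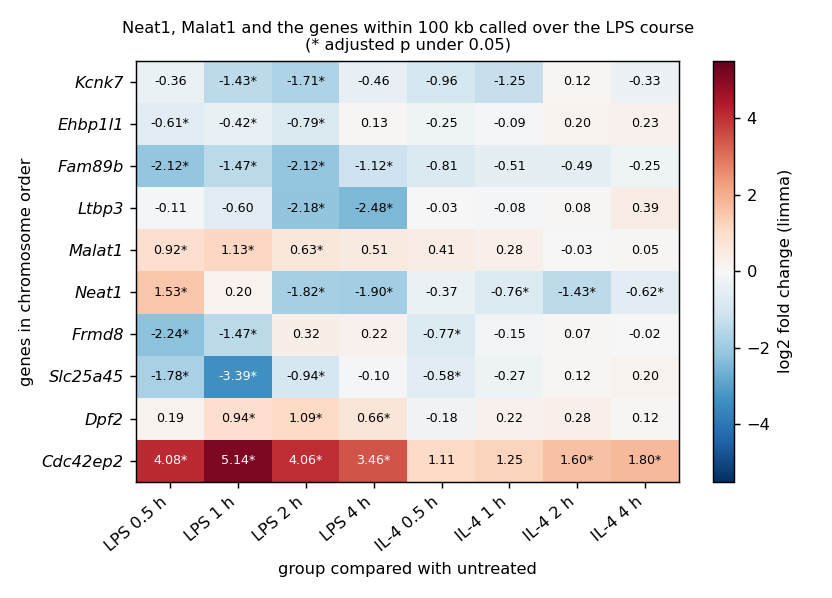
Log2 fold changes (limma) against untreated cells of Neat1, Malat1 and the 8 genes within 100 kb that were called over the LPS course, in chromosome order, for the 4 LPS and the 4 IL-4 times. Red marks higher and blue lower values, and an asterisk marks an adjusted p under 0.05. At LPS 0.5 h Neat1 is at 1.53 and its neighbour Frmd8 at -2.24, and the row of Cdc42ep2, whose untreated values are near 0, depends on the added 1.

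Lists of genes with known roles around both RNAs were counted next to them. Of 22 tested paraspeckle proteins, 7 were called with a rise and 13 with a fall over the LPS course, beside 32.9% and 54.7% of all tested genes, and 3 and 2 over the IL-4 course, beside 19.4% and 20.9%. Nono, a core paraspeckle protein, was at 117 ± 17.5 in untreated cells and lower, at 42.3 ± 8.14, at LPS 0.5 h. It then rose to 563 ± 84.8 at LPS 4 h (log2 fold change 2.25 against untreated, limma adjusted p = 2.17e-08). Hnrnpr fell from 254 ± 46.0 to 74.3 ± 5.51 at the same time (-1.74, adjusted p = 1.79e-06). After IL-4, Matr3, a nuclear matrix protein that binds RNA, rose from 752 ± 117 to 1601 ± 136 at 4 h (1.10, adjusted p = 0.000193), and Hnrnph3 fell by 0.43 at 0.5 h (adjusted p = 0.03), a call lost without the second or the third replicates (adjusted p = 0.157 and 0.211). The median log2 fold change of the list after LPS was -0.21, 0.21, -0.28 and -0.42 at the 4 times, beside -0.24, -0.30, -0.29 and -0.26 for all tested genes. With equal totals the LPS counts became 2 and 17, and with median-of-ratios factors 11 and 8. The scaling shifts every gene, and the rises among all LPS calls went from 37.6% to 23.2% and 46.2% under the same alternatives. After IL-4 the counts were 4 and 6 with equal totals, beside 2685 and 3652 of all 13901 tested genes.

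Of 25 nuclear speckle proteins, 13 were called with a rise and 10 with a fall after LPS, and 10 and 2 after IL-4, against the same shares of all tested genes of 32.9% and 54.7%, and of 19.4% and 20.9%. Luc7l3, a splicing factor, rose from 390 ± 6.81 to 1080 ± 43.5 at LPS 2 h (log2 fold change 1.47, limma adjusted p = 9.31e-09). Pnn, which encodes pinin, fell from 57.7 ± 8.62 to 18.3 ± 2.08 at 0.5 h (-1.60, adjusted p = 5.9e-06). After IL-4, Clk4, a kinase of splicing factors, rose from 194 ± 2.52 to 455 ± 29.0 at 4 h (1.23, adjusted p = 3.95e-06), and its relative Clk1 fell by 0.43 at 0.5 h (adjusted p = 0.02), which was likewise lost without either (adjusted p = 0.183 and 0.124). The LPS counts were 3 and 19 with equal totals and 17 and 6 with median-of-ratios factors, under the same shift of all genes.

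For the enzymes that process Malat1, 7 of the 12 genes in the RNase P and RNase Z list were tested. After LPS 1 was called with a rise and 6 with a fall (0 and 5 with equal totals, 2 and 5 with median-of-ratios factors), and after IL-4 3 and 0. All tested genes gave 32.9% and 54.7% after LPS, and 19.4% and 20.9% after IL-4. Of these 13901 genes, 2919 were called with a rise and 9678 with a fall after LPS with equal totals, and 5605 and 6519 with median-of-ratios factors. Rpph1, the RNA component of RNase P, rose from 254 ± 20.7 to 448 ± 109 at LPS 4 h (log2 fold change 0.79, limma adjusted p = 0.00294), but with equal totals the value was 0.19 (adjusted p = 0.429). Rpp21, a protein subunit, fell from 11.3 ± 4.51 to 1.33 ± 0.577 at LPS 0.5 h (-2.36, adjusted p = 0.0023), and missed the threshold without the second replicates (adjusted p = 0.0699). Pop4, another subunit, rose from 25.3 ± 13.8 to 81.3 ± 12.5 at IL-4 1 h (1.76, adjusted p = 0.000866), which missed it without the second replicates (1.35, adjusted p = 0.0781).

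Of 17 tested genes of nuclear RNA decay, such as subunits of the RNA exosome, 3 were called with a rise and 11 with a fall after LPS, where 32.9% and 54.7% of all tested genes were, and 6 and 0 after IL-4, where 19.4% and 20.9% were. Rbm7, which brings the exosome to nuclear RNA, rose from 83.0 ± 10.4 to 255 ± 32.7 at LPS 0.5 h (log2 fold change 1.61, limma adjusted p = 6.3e-06). Exosc5, an exosome subunit, fell from 39.0 ± 9.17 to 1.67 ± 2.08 at LPS 2 h (-4.19, adjusted p = 4.73e-06). Exosc1 rose by 0.81 at IL-4 2 h (adjusted p = 0.02), a call that was lost without any one of the replicate numbers (0.67 to 0.90). The LPS counts were 1 and 15 with equal totals and 5 and 10 with median-of-ratios factors. Of all 13901 tested genes, 2919 were called with a rise and 9678 with a fall after LPS with equal totals. With median-of-ratios factors 5605 and 6519 were, so the scaling shifted all genes as well as this list.

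The genes with the pattern most like each RNA were sought among 6826 tested genes with a mean of at least 50, by Pearson's r of the log2 means of the 9 groups. For Neat1 these included Slc20a1, a phosphate transporter (r = 0.977), Pmp22, a membrane protein of myelin (0.971), the non-coding Gm41884 (0.97), and Zrsr2, a splicing factor of minor introns (0.97). Slc20a1 had means of 61.0 in untreated cells, 326 at LPS 0.5 h, 13.3 at LPS 4 h and 29.7 at IL-4 2 h, and Pmp22 had 237, 498, 17.3 and 44.7. For Malat1 they were Ccl2, a monocyte chemokine (0.977), Cpsf7, of the cleavage factor for polyadenylation (0.977), Jdp2, a repressor of the AP-1 family (0.977), P2ry2, a receptor of extracellular nucleotides (0.976), and Ell2, an elongation factor (0.974). The range of Malat1 was much smaller than that of Jdp2, which went from 65.3 in untreated cells to 8407 at LPS 1 h, or of Ell2, from 374 to 6572. Between Neat1 and Malat1 themselves r was 0.368. The 9 points share their libraries and scaling, and these correlations are descriptions.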

How the data were processed

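The authors made the libraries from BMDM chromatin RNA with Smart-seq2 and random primers, aligned the reads to mm10 with TopHat2 (2.1.1), removed multi-mapping and blacklisted reads with bedtools (2.29.2) and counted per RefSeq gene. The deposited values are read counts that the authors scaled on invariant genes and rounded, and because of this scaling no count model was fitted to this score. Strand use in the counting is not given in the sources used here, and Gm51921 and Gm42092, on opposite strands, differed by at most 1 in any sample.

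Genes with at least 10 in at least 3 of 27 samples entered limma 3.58.1 (R 4.3.3) on the scale log2(value + 1), with a mean-variance trend and Benjamini-Hochberg adjustment over all 13901 genes. Each course was fitted with the untreated samples, which both share, and LPS was set against IL-4 in 1 fit of all samples. Log2 fold changes understate low genes. The fits were run on simulated data with few changed genes and no replicate effect. These settings differ from the real data, so that run checks the code only. Ratios were tested by permutation in scipy 1.17.1. The alternatives were other scalings, pseudocounts, filters, left-out replicates and a replicate block. The 2 genes and all lists were chosen with earlier results of these data known. Named genes were the members, tested genes within 100 kb, the largest called rise and fall of each list per stimulus, and the 5 genes most like each member. Of the genes this rule names, 2 are not reported here.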

Additional observations from a re-analysis of the deposited data

Results flagged for a closer look

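Several effects differed between LPS and IL-4 at the same time by the direct limma test. The same test called 53.8% of all tested genes at 0.5 h and 64.5% at 1 h. It called 68.6% after 2 h and 68.0% after 4 h, so a call alone does not set a gene apart. Neat1 differed by 1.90 at 0.5 h (adjusted p = 6.35e-09), 0.96 at 1 h (adjusted p = 7.23e-05) and -1.28 at 4 h (adjusted p = 1.4e-06) on the log2 scale, as LPS minus IL-4. All LPS samples were above all IL-4 samples at 0.5 h and below them at 4 h. Malat1 differed by 0.51 at 0.5 h (adjusted p = 0.0425), 0.85 at 1 h (adjusted p = 0.00109) and 0.65 at 2 h (adjusted p = 0.00789). The differences of Malat1, unlike those of Neat1, were not past the threshold when all libraries were brought to equal totals. Groups of 3 samples are too small for a test of single outlying samples.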

How the results depend on the processing

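For the 2 genes, 203 of 216 rechecked values of Neat1 and 179 of 216 of Malat1 kept their direction and their side of the threshold (limma). The sign changed in 1 value of Neat1 and 7 of Malat1. With equal totals these were Malat1 at LPS 2 h (-0.034), which also lost its call, and 3 differences past the threshold in neither fit: Neat1 at LPS 1 h (-0.38), Malat1 at LPS 4 h (-0.099) and Malat1 against IL-4 at 4 h (-0.17). With equal totals, Malat1 also lost its call at LPS 0.5 h (0.40) and against IL-4 at 0.5, 1 and 2 h (0.13, 0.37 and 0.021), while Neat1 gained one at IL-4 0.5 h (-0.49) and against IL-4 at 2 h (-1.02). With median-of-ratios factors, Malat1 gained a call at LPS 4 h (0.75) and against IL-4 at 4 h (0.75). Without a filter, which raised the number of genes tested to 30272, Malat1 missed the threshold at LPS 2 h (0.63) and against IL-4 at 0.5 h (0.51). With replicates 2 and 3 averaged it missed it at the same points (0.69 and 0.50). In 1 fit of all 27 samples Malat1 passed at LPS 4 h (0.51).

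Leaving out each replicate number in turn gave ranges for Malat1 of 0.80 to 1.04, 0.51 to 0.84 and 0.32 to 0.67 at LPS 0.5, 2 and 4 h, 0.27 to 0.51 at IL-4 0.5 h, and 0.47 to 0.53, 0.49 to 0.80 and 0.37 to 0.51 against IL-4 at 0.5, 2 and 4 h. Its F tests had adjusted p of 0.000147 to 0.095 (LPS) and 0.0352 to 0.735 (IL-4), and Neat1 against IL-4 at 2 h ranged from -0.46 to -0.34. The other sign changes were among values never past the threshold, of Malat1 at IL-4 2 h (-0.14 to 0.036), at IL-4 4 h (-0.053 to 0.18) and between LPS 2 and 4 h (-0.21 to 0.033).

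Samples with the same replicate number deviated together with correlations of 0.351 to 0.713 for number 1, 0.0897 to 0.361 for number 2 and 0.202 to 0.454 for number 3, and the labels give no shared source. As the lowest correlation was under the limit of 0.1 set for pairing, the numbers were not taken to pair the samples, although 19 of 27 samples correlated best with their own number, a hint from the data that they may. A replicate block left 32 of 40 results on their side of the threshold and added 8 calls: Neat1 at IL-4 0.5 h (-0.37, adjusted p = 0.00888) and against IL-4 at 2 h (-0.39), and Malat1 at LPS 4 h (0.51), at IL-4 0.5 h (0.41, adjusted p = 0.0182), against IL-4 at 4 h (0.46) in the F test over IL-4 (adjusted p = 0.0157), and in 2 steps, Malat1 from LPS 1 to 2 h (-0.50, adjusted p = 0.00634) and Neat1 from IL-4 0.5 to 1 h (-0.40, adjusted p = 0.00932). With the 10 genes of highest mean left out of the totals, 2 of 18 shares moved by more than 1 SD, that of Neat1 at LPS 2 h to 0.0592% and that of Malat1 at LPS 0.5 h to 0.630%. Malat1 is itself among those 10 genes, so its value is then relative to a total that does not contain it. Of the rechecked values of other named genes, 287 kept their side, 32 lost a call and 2 gained one. The scaling moved the share of LPS calls that were rises from 37.6% to 23.2% with equal totals and to 46.2% with median-of-ratios factors. Read depth is unknown, so counting error could not be given.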

Other observations

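Other long non-coding RNAs of the table gave a varied picture beside Neat1 and Malat1. Of 22 tested, 11 were called with a rise and 6 with a fall over the LPS course, and 4 and 3 over the IL-4 course (5 and 10, and 4 and 5, with equal totals; 14 and 6, and 3 and 2, with median-of-ratios factors). Of all tested genes, 32.9% were called with a rise and 54.7% with a fall after LPS, and 19.4% and 20.9% after IL-4. With equal totals, 2919 and 9678 of these 13901 genes were so called after LPS, and 2685 and 3652 after IL-4. With median-of-ratios factors the numbers were 5605 and 6519, and 2443 and 3048. Mir155hg, the host of the inflammatory microRNA miR-155, was at 3.33 ± 4.04 normalised read counts in untreated cells and 827 ± 168 at LPS 2 h (SD, n = 3, limma adjusted p = 2.83e-10). Ftx, a gene of the X inactivation centre, fell from 233 ± 64.5 to 29.7 ± 10.1 at LPS 4 h (log2 fold change -2.95, adjusted p = 1.82e-06). Dleu2 had a mean of 2485 ± 489 in untreated cells and 6238 ± 786 at LPS 0.5 h. At LPS 1, 2 and 4 h it was 2294 ± 493, 1411 ± 184 and 2173 ± 394 (F test over the LPS course, limma adjusted p = 8.76e-07). It fell to 1385 ± 244 at IL-4 1 h (-0.84, adjusted p = 0.0165), a call lost without the second or the third replicates (adjusted p = 0.216 and 0.131). Mir17hg, the host of the miR-17 cluster, rose from 5.0 ± 1.0 to 17 ± 7.55 at IL-4 2 h (1.51, adjusted p = 0.0185), also lost without the second or the third replicates (adjusted p = 0.0785 and 0.112).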
